A study of Homo sapiens with 4 samples.

Results

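Transcripts of the SR proteins and of the hnRNPs were examined in DU145 cells treated with compounds described as inhibitors of PSF. The members were the genes of a list of 38 symbols, 14 of SR proteins and 24 of hnRNPs, matched to the gene symbols of the platform annotation. A named probe set was found for 33 of them, 13 SR proteins and 20 hnRNPs, among 17687 genes named on the array. The signals of SRSF2, HNRNPA3, HNRNPK, PTBP1 and PCBP2 were not analysed here. DU145 is an established line of human prostate cancer cells whose growth does not need androgen. All cells were kept in RPMI medium with serum and treated for 48 h. The treatments were 5 µM No.10-3, 0.5 µM C-30, 2 µM C-30 and vehicle. Each of the 4 conditions had 1 array, so no value has an error, no difference has a p-value, and all values describe these 4 arrays. Fewer cells and less RNA per cell cannot be told apart in such samples. The doses of the compounds differ, so their values are set side by side and each is read against vehicle.

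SR proteins carry RNA recognition motifs and a tail rich in arginine and serine, bind exonic enhancers and recruit the splicing machinery to nearby splice sites. hnRNPs coat nascent transcripts through several kinds of RNA-binding domain, and many of them act as splicing silencers that compete with SR proteins, so that the balance between the families sets how often an exon is included. Many genes of both families hold conserved exons with a stop codon, whose inclusion sends the transcript to nonsense-mediated decay, and most regulate their own level in this way. PSF, the product of SFPQ, also binds RNA in the nucleus and has roles in splicing. The array gives 1 signal per gene, so productive and decaying isoforms cannot be told apart here.

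Values are log2 signals, with the log base inferred from their range, and a difference is the log2 signal of the treated array minus that of vehicle. A gene entered a comparison when the higher of the 2 arrays reached a floor of 5.56, the median of all named probe sets, and it was counted at a difference of 1 in either direction, called 2-fold on the scale of these values. Background means the level under which 95% of negative control probe sets fell, which lay between 7.06 and 7.32 on the 4 arrays. Of the 33 members, 30 were above it on every array. SRSF12 and PTBP2 were under it on all 4 arrays, and HNRNPH2 was under it on the vehicle array. PTBP2 reached the floor through the array of C-30 at 2 µM alone, so 32 members entered the comparisons of No.10-3 and of C-30 at 0.5 µM with vehicle and 33 the others. Of the epithelial markers, KRT8, KRT18, KRT19 and EPCAM were above background on each array and CDH1 was not. The stromal markers COL1A1, DCN and LUM were under it throughout, as were the leukocyte markers PTPRC, CD3E and CD79A, whereas CD68 was above it on all 4 arrays. KLK3, the androgen-responsive marker with a named probe set, was within background. ERCC spikes had robust SDs between 0.126 and 0.271 over 63 probe sets in the 4 comparisons, but their median signals, 3.96 to 4.15, lay under the floor, so this spread need not apply to brighter genes.

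Few members passed 2-fold. With No.10-3 the only one was HNRNPH3, 1 of 32 members higher and 0 lower, against 4.36% of 9219 genes higher and 1.32% lower. With C-30 at 0.5 µM no member passed, against 3.4% of 9267 genes higher and 2.77% lower. At 2 µM the only one was SRSF3, 1 of 33 higher and 0 lower, against 4.67% of 9319 genes higher and 6.15% lower. Between the C-30 doses, 2 µM over 0.5 µM, no member passed either, against 1.39% of 9282 genes higher and 2.18% lower. These counts are at or under what the background shares would give, so the members did not stand out by the number past 2-fold. Within this range the genes went different ways, and the ways they went are described by role below.

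**Figure D1:**
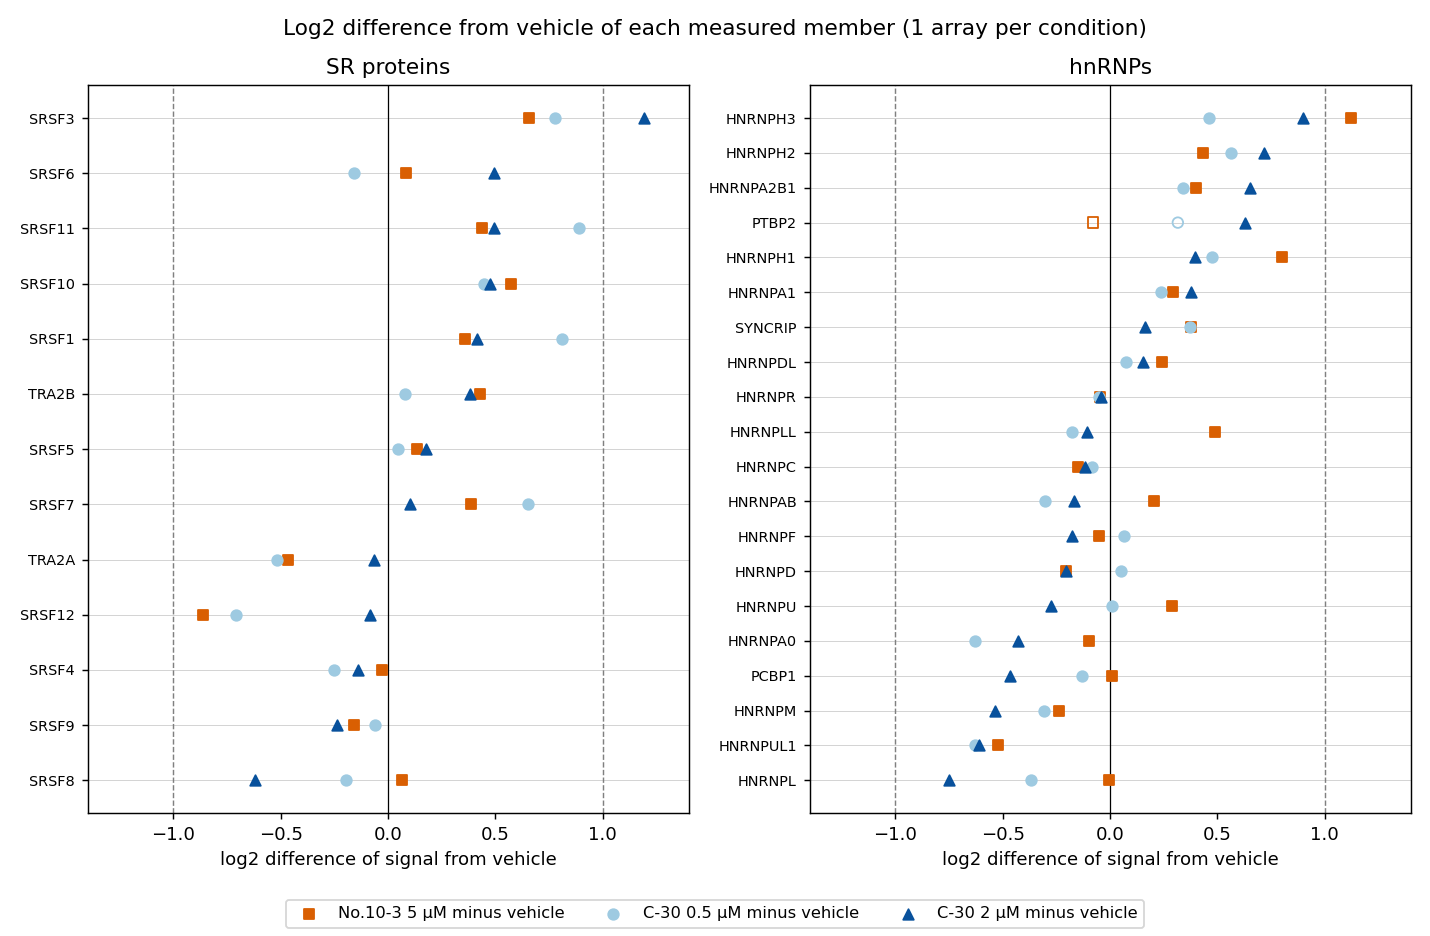
Log2 difference of signal from vehicle (x axis) for each of the 33 measured members (y axis), SR proteins on the left and hnRNPs on the right, sorted by C-30 at 2 µM; squares are No.10-3 at 5 µM, circles C-30 at 0.5 µM, triangles C-30 at 2 µM, open symbols lie below the floor, and dashed lines mark 2-fold. Only SRSF3 with C-30 at 2 µM (1.19) and HNRNPH3 with No.10-3 (1.12) lie past a dashed line.

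SRSF3 (chromosome 6, 36594362 to 36605600 in GRCh38.p14) encodes the smallest SR protein, which regulates exon inclusion and helps to export messenger RNAs, including intronless histone transcripts. It had 10.55 after No.10-3, 10.67 after 0.5 µM C-30 and 11.08 after 2 µM C-30, against 9.89 after vehicle. All 3 treated arrays were higher than vehicle, and among the C-30 arrays the higher dose had the higher signal. The differences were 0.66, 0.78 and 1.19, and that of C-30 at 2 µM exceeded 97.7% of all genes in the comparison. HNRNPH3 (chromosome 10, 68331693 to 68343196) encodes a member of the F/H group, whose quasi-RRM domains bind runs of guanine. It had a signal of 13.12 in cells given No.10-3, of 12.46 and 12.90 in cells given C-30 at 0.5 and 2 µM, against 12.00 in vehicle cells. Here too every treated array was above vehicle, at differences of 1.12, 0.46 and 0.90. The difference of No.10-3 exceeded 97.2% of all genes. A change of floor decides only which genes enter a comparison, so it cannot alter these differences. Under quantile normalization, a lowess correction and median centring, HNRNPH3 stayed past 2-fold with No.10-3, at 1.03 to 1.08. SRSF3 stayed past it with C-30 at 2 µM, at 1.26 to 1.35. Quantile normalization, or a lowess correction on the signal, also put HNRNPH3 past 2-fold at that C-30 dose.

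The promoters of these genes are shown because they are the members that passed 2-fold, and those of HNRNPL and HNRNPUL1 because they were the lowest hnRNPs with C-30 at 2 µM. Each is the run of 250 bases before the annotated 5′ end of the gene, 5′ to 3′ on the strand of the gene, from RefSeq on GRCh38.p14. RefSeq's table has 1 window for SRSF3, 3 for HNRNPH3, 2 for HNRNPL and 3 for HNRNPUL1, and the other windows of these genes are not shown. Capitals mark letters that match 1 of 4 motifs on either strand, and a match is a description of these letters only. The CCAAT box was searched by the letters of its name. The GC box was searched as GGGCGG. For the TATA box the letters were TATAAA. For the core of ETS factor sites they were CCGGAAG. The windows lie at chr6:36594112-36594361, plus strand, at chr10:68331443-68331692, plus strand, at chr19:38852348-38852597, minus strand, and at chr19:41262307-41262556, plus strand.
SRSF3: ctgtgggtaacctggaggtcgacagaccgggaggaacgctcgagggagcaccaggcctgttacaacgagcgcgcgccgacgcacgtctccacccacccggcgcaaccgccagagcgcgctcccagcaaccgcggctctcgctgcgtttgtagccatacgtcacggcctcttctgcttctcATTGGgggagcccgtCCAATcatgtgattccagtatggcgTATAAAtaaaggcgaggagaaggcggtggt
HNRNPH3: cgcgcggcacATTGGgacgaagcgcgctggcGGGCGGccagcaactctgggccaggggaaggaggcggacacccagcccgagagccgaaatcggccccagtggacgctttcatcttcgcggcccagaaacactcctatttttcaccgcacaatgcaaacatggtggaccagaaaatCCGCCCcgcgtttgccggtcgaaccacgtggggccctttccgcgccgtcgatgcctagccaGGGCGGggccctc
HNRNPL: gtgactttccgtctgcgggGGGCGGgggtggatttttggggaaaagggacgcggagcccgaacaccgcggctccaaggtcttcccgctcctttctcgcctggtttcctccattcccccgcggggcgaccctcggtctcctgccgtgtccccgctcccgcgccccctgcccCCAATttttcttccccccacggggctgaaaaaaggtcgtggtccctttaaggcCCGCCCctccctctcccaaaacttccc
HNRNPUL1: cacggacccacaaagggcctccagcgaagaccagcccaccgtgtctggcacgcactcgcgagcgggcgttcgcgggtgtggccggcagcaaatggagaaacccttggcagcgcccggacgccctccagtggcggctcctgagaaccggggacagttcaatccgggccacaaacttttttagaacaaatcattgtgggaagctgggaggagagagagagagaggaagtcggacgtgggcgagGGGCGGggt
The SRSF3 window held 2 CCAAT boxes in opposite orientation and 1 TATA box, and no GC box. HNRNPH3 had 1 CCAAT box and 3 GC boxes, HNRNPL 1 and 2, and HNRNPUL1 a single GC box. Over the 50 windows of the 35 members with an entry, 42% held a CCAAT box, against 32.0% of all 35116 windows. A GC box was found in 64% of member windows and 42.6% of all, a TATA box in 12% and 10.7%, and an ETS core in 14% and 8.52%. CpG dinucleotides had a median of 24.5 per member window, against 11 per window overall. The 35116 windows belong to 27305 genes and were not limited to genes on the array or past the floor. These contrasts therefore do not set the members apart from other genes of like signal. The windows printed held 26 (SRSF3), 27 (HNRNPH3), 21 (HNRNPL) and 21 (HNRNPUL1).

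Among the other classical SR genes, SRSF1 (chromosome 17), the founding member of the family, which recruits U1 snRNP to 5′ splice sites, had 13.35 on the No.10-3 array, 13.80 and 13.41 on the arrays of C-30 at 0.5 and 2 µM, against 12.99 on the vehicle array. All treated arrays were above vehicle, at differences of 0.36, 0.81 and 0.42, and of the C-30 arrays that of 0.5 µM was the higher. SRSF7, a zinc-knuckle SR protein that like SRSF3 serves as an adaptor for export, had 9.65 after No.10-3, 9.91 after 0.5 µM C-30 and 9.36 after 2 µM C-30, against 9.26 after vehicle. It followed the same order over the C-30 arrays, with differences of 0.39, 0.65 and 0.10, so that 2 µM lay near vehicle. SRSF3 and SRSF7 are close relatives, and with C-30 at 2 µM SRSF3 exceeded SRSF7 in its difference from vehicle by 1.09.

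SRSF6, one of the SR proteins with a long arginine and serine tail, had a signal of 9.53 in cells given No.10-3, of 9.28 and 9.94 in cells given C-30 at 0.5 and 2 µM, against 9.44 in vehicle cells. Only C-30 at 2 µM lay over 0.2 from vehicle, at a difference of 0.49. SRSF4, its close relative, had 11.65 on the No.10-3 array, 11.42 and 11.54 on the arrays of C-30 at 0.5 and 2 µM, against 11.68 on the vehicle array. The differences of SRSF4 were -0.03, -0.25 and -0.14, the last of which changed sign under another scaling. SRSF5, first found in regenerating rat liver, had 13.28 after No.10-3, 13.19 after 0.5 µM C-30 and 13.32 after 2 µM C-30, against 13.14 after vehicle, a range of 0.18 over the 4 arrays. SRSF9, a short SR protein related to SRSF1, had a signal of 9.93 in cells given No.10-3, of 10.03 and 9.85 in cells given C-30 at 0.5 and 2 µM, against 10.09 in vehicle cells. SRSF5 and SRSF9 thus lay within 0.3 of vehicle on each treated array.

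The less typical members of the SR family went further apart. SRSF11, an SR-related protein that contacts the splicing factor U2AF, had 8.56 on the No.10-3 array, 9.01 and 8.62 on the arrays of C-30 at 0.5 and 2 µM, against 8.13 on the vehicle array. All treated arrays were higher, and the difference of 0.89 with C-30 at 0.5 µM was the largest of any member there, above 95.1% of all genes. SRSF10, which turns into a general splicing repressor when it is dephosphorylated in heat shock, had 9.77 after No.10-3, 9.65 after 0.5 µM C-30 and 9.67 after 2 µM C-30, against 9.20 after vehicle. Its treated arrays were all above vehicle, at differences of 0.57, 0.45 and 0.47. SRSF8, a retrogene copy of SRSF2, had a signal of 7.88 in cells given No.10-3, of 7.62 and 7.19 in cells given C-30 at 0.5 and 2 µM, against 7.81 in vehicle cells. It was near vehicle with No.10-3 and at -0.62 with C-30 at 2 µM, where its signal lay just above background. SRSF12, which antagonises SR proteins, had 5.71 on the No.10-3 array, 5.87 and 6.49 on the arrays of C-30 at 0.5 and 2 µM, against 6.57 on the vehicle array. Its differences of -0.86, -0.71 and -0.08 include the lowest of any member on the arrays of No.10-3 and of 0.5 µM C-30, but all 4 signals were within background. TRA2A and TRA2B, the human counterparts of Drosophila Transformer 2, bind exonic enhancers rich in GAA. TRA2A had 9.23 after No.10-3, 9.18 after 0.5 µM C-30 and 9.63 after 2 µM C-30, against 9.70 after vehicle. TRA2B had a signal of 13.55 in cells given No.10-3, of 13.20 and 13.51 in cells given C-30 at 0.5 and 2 µM, against 13.13 in vehicle cells. With No.10-3 these paralogues stood on opposite sides of vehicle, at -0.47 for TRA2A and 0.43 for TRA2B.

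**Figure D2:**
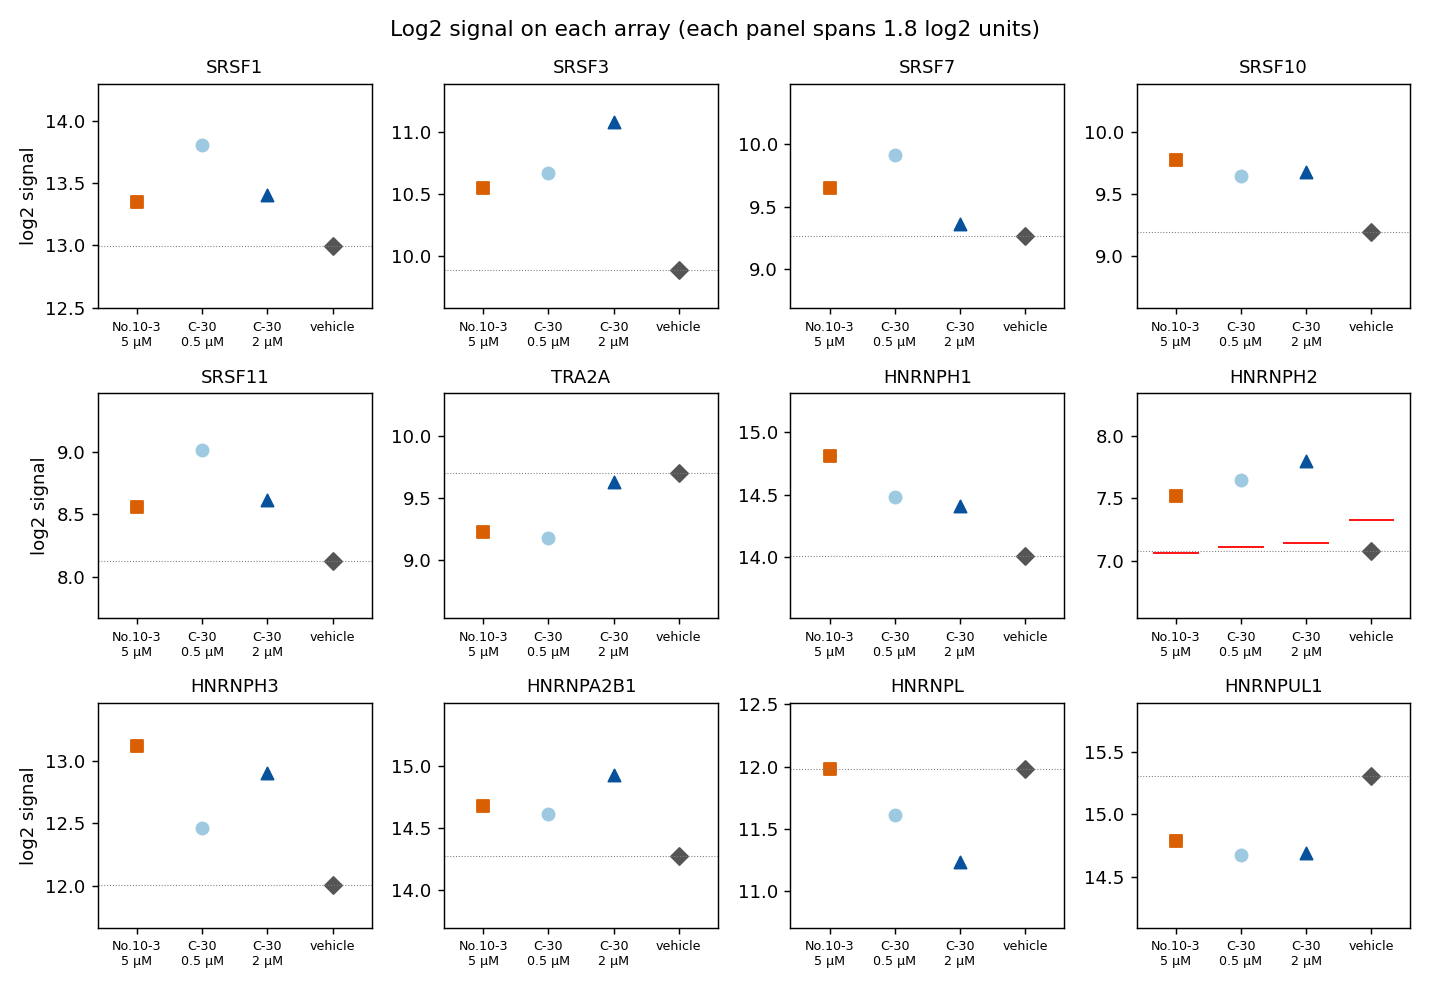
Log2 signal (y axis) on each of the 4 arrays (x axis) for 12 members, 1 point per array, each panel spanning 1.8 log2 units, with the dotted line at the vehicle signal and, for HNRNPH2, red bars at the background level of each array. SRSF1, SRSF3, SRSF7, SRSF10, SRSF11, HNRNPH1, HNRNPH2, HNRNPH3 and HNRNPA2B1 lie above the dotted line on the 3 treated arrays. TRA2A, HNRNPL and HNRNPUL1 lie below it, with HNRNPL at only -0.006 with No.10-3 and TRA2A at -0.07 with C-30 at 2 µM.

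The F/H group held the hnRNPs with the largest positive differences. HNRNPH1, which silences or enhances exons through runs of guanine, had 14.81 on the No.10-3 array, 14.48 and 14.41 on the arrays of C-30 at 0.5 and 2 µM, against 14.01 on the vehicle array. All treated arrays were above vehicle, and the difference of 0.80 with No.10-3 exceeded 92.2% of all genes. HNRNPH2, a near-identical relative encoded on the X chromosome, had 7.52 after No.10-3, 7.64 after 0.5 µM C-30 and 7.80 after 2 µM C-30, against 7.08 after vehicle. Its differences of 0.43, 0.56 and 0.72 are inexact because the vehicle signal was under background. HNRNPF, the remaining member, had a signal of 14.42 in cells given No.10-3, of 14.53 and 14.29 in cells given C-30 at 0.5 and 2 µM, against 14.47 in vehicle cells. HNRNPF stayed within 0.2 of vehicle, and its sign with C-30 at 2 µM turned under another scaling. Over the 4 genes the median differences were 0.62, 0.47 and 0.56. Over all genes the medians were 0.05, -0.04 and -0.06. HNRNPH1 and HNRNPH2 are so alike that probes could read more than 1 of them, and HNRNPA1 and other hnRNP genes have processed pseudogenes, so single values of these genes are uncertain.

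In the A/B group, whose proteins bind UAG-containing silencers and AU-rich elements, HNRNPA2B1, a packager of nascent transcripts that also guides RNA transport, had 14.68 on the No.10-3 array, 14.61 and 14.93 on the arrays of C-30 at 0.5 and 2 µM, against 14.27 on the vehicle array. HNRNPA1, the best studied exon silencer, had 16.28 after No.10-3, 16.22 after 0.5 µM C-30 and 16.36 after 2 µM C-30, against 15.98 after vehicle. Both were higher on every treated array, at 0.40, 0.34 and 0.65 for HNRNPA2B1 and 0.29, 0.24 and 0.38 for HNRNPA1, and in both the higher C-30 dose had the higher signal. HNRNPA0, which binds AU-rich elements of cytokine transcripts, had a signal of 9.55 in cells given No.10-3, of 9.02 and 9.22 in cells given C-30 at 0.5 and 2 µM, against 9.65 in vehicle cells. It was below vehicle on each treated array, at -0.10, -0.63 and -0.43. HNRNPD, also known as AUF1, promotes decay of transcripts with AU-rich elements and had 14.30 on the No.10-3 array, 14.56 and 14.31 on the arrays of C-30 at 0.5 and 2 µM, against 14.51 on the vehicle array. HNRNPDL, its paralogue, which lies nearby on chromosome 4 (HNRNPD at 82352498 to 82373991, HNRNPDL at 82422564 to 82430462), had 11.16 after No.10-3, 10.99 after 0.5 µM C-30 and 11.07 after 2 µM C-30, against 10.91 after vehicle. Both stayed within 0.3 of vehicle. HNRNPAB had a signal of 12.16 in cells given No.10-3, of 11.65 and 11.79 in cells given C-30 at 0.5 and 2 µM, against 11.95 in vehicle cells, at differences of 0.21, -0.30 and -0.17, the last of which changed sign under another scaling.

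Outside these groups lay the lowest hnRNP of the No.10-3 array, HNRNPUL1, and that of the 2 µM C-30 array, HNRNPL. On the 0.5 µM C-30 array HNRNPA0, of the A/B group, was lowest at -0.6282, barely under HNRNPUL1 at -0.6278. HNRNPL (chromosome 19, 38836370 to 38852347), which binds CA repeats, had 11.98 on the No.10-3 array, 11.62 and 11.23 on the arrays of C-30 at 0.5 and 2 µM, against 11.98 on the vehicle array. It matched vehicle with No.10-3 and was lower on both C-30 arrays, at -0.37 and -0.75. Of all genes, 12.5% were lower still at 2 µM. HNRNPLL, a paralogue known for CD45 splicing in T cells, had 8.20 after No.10-3, 7.54 after 0.5 µM C-30 and 7.61 after 2 µM C-30, against 7.71 after vehicle. Its differences were 0.49, -0.18 and -0.11. HNRNPUL1 (chromosome 19, 41262557 to 41307787), a relative of hnRNP U that takes part in the DNA damage response, had a signal of 14.78 in cells given No.10-3, of 14.68 and 14.69 in cells given C-30 at 0.5 and 2 µM, against 15.30 in vehicle cells. All 3 treated arrays were lower than vehicle, at -0.52, -0.63 and -0.61. HNRNPU, a nuclear scaffold protein, had 16.70 on the No.10-3 array, 16.42 and 16.14 on the arrays of C-30 at 0.5 and 2 µM, against 16.41 on the vehicle array, and its sign with C-30 at 2 µM changed under another scaling.

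HNRNPM, which binds GU-rich motifs and controls splicing in epithelial to mesenchymal transition, had 16.09 after No.10-3, 16.02 after 0.5 µM C-30 and 15.79 after 2 µM C-30, against 16.33 after vehicle. The differences were -0.24, -0.31 and -0.53, all below vehicle. PCBP1, an intronless KH-domain gene that binds poly(C) and also delivers iron, had a signal of 13.00 in cells given No.10-3, of 12.86 and 12.53 in cells given C-30 at 0.5 and 2 µM, against 12.99 in vehicle cells. Only C-30 at 2 µM lay beyond 0.2 of vehicle, at -0.46. SYNCRIP, or hnRNP Q, had 11.67 on the No.10-3 array, 11.66 and 11.45 on the arrays of C-30 at 0.5 and 2 µM, against 11.29 on the vehicle array. HNRNPR, its paralogue, had the smallest range of all members, 0.05, with 12.44 after No.10-3, 12.44 after 0.5 µM C-30 and 12.45 after 2 µM C-30, against 12.49 after vehicle. HNRNPC, which binds uridine tracts of nascent transcripts, had a signal of 16.84 in cells given No.10-3, of 16.91 and 16.88 in cells given C-30 at 0.5 and 2 µM, against 16.99 in vehicle cells, and the signs of its small differences with C-30 turned under other scalings. PTBP2, the neuronal PTB protein whose exon PTBP1 represses outside neurons, had 4.87 on the No.10-3 array, 5.26 and 5.58 on the arrays of C-30 at 0.5 and 2 µM, against 4.95 on the vehicle array, all within background.

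The family medians lay within 0.3 of each other and of the median of all genes in each comparison. With No.10-3 the SR median was 0.13 with 9 of 13 genes higher, the hnRNP median 0.21 with 11 of 19 higher, and the median of all genes 0.05 with 54.0% higher. The SR median minus the hnRNP median was -0.07, but without a floor it was 0.02, and raising the floor to the 75th percentile made it 0.25. With C-30 at 0.5 µM the medians were 0.05 for SR proteins (7 of 13 higher), 0.01 for hnRNPs (10 of 19) and -0.04 for all genes (46.9% higher). With C-30 at 2 µM the SR median was 0.18 (8 of 13 higher) and the hnRNP median -0.11 (8 of 20), which turned to 0.08 under quantile normalization and to 0.0085 under the lowess correction, beside -0.06 for all genes (46.4% higher). Of all 33 members 16 were higher and 17 lower as deposited, against 24 and 9 under quantile normalization and 20 and 13 under the lowess correction. The family difference there was 0.29. It was 0.27 under quantile normalization, 0.33 under the lowess correction and 0.55 with the floor at the 75th percentile, where 28 members entered. The remaining settings could not move it beyond rounding. The median size of a difference, regardless of sign, was 0.39, 0.45 and 0.38 for SR proteins, 0.24, 0.30 and 0.39 for hnRNPs, and 0.32, 0.35 and 0.41 for all genes. The comparisons with vehicle share the vehicle array, so likeness between them is no repeat of a result.

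At a looser threshold of 1.5-fold, 3 of 32 members were higher and 1 lower with No.10-3, against 14.8% and 8.34% of all genes. These were SRSF3, HNRNPH1 and HNRNPH3 on the higher side and SRSF12 on the lower side. With C-30 at 0.5 µM 4 of 32 were higher and 3 lower, against 12.2% and 13.4%. The higher members there were SRSF1, SRSF3, SRSF7 and SRSF11, and the lower ones were SRSF12, HNRNPA0 and HNRNPUL1. Although the higher ones were all SR genes, 6 of 13 SR genes lay below vehicle there, and the SR median was 0.05. With C-30 at 2 µM 5 of 33 were higher and 3 lower, against 15.1% and 18.5%. These were SRSF3, HNRNPA2B1, HNRNPH2, HNRNPH3 and PTBP2 on the higher side and SRSF8, HNRNPL and HNRNPUL1 on the lower side. PTBP2 entered only through its signal on that treated array. Over both families together, the counts at 1.5-fold are near or under what the shares of all genes would give. By family, with C-30 at 0.5 µM 4 of 13 SR genes were higher and 1 lower. Of 19 hnRNPs 0 were higher and 2 lower there. The SR count on the higher side was thus above the share of 12.2%, but it rests on few genes and was not tested.

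**Figure D3:**
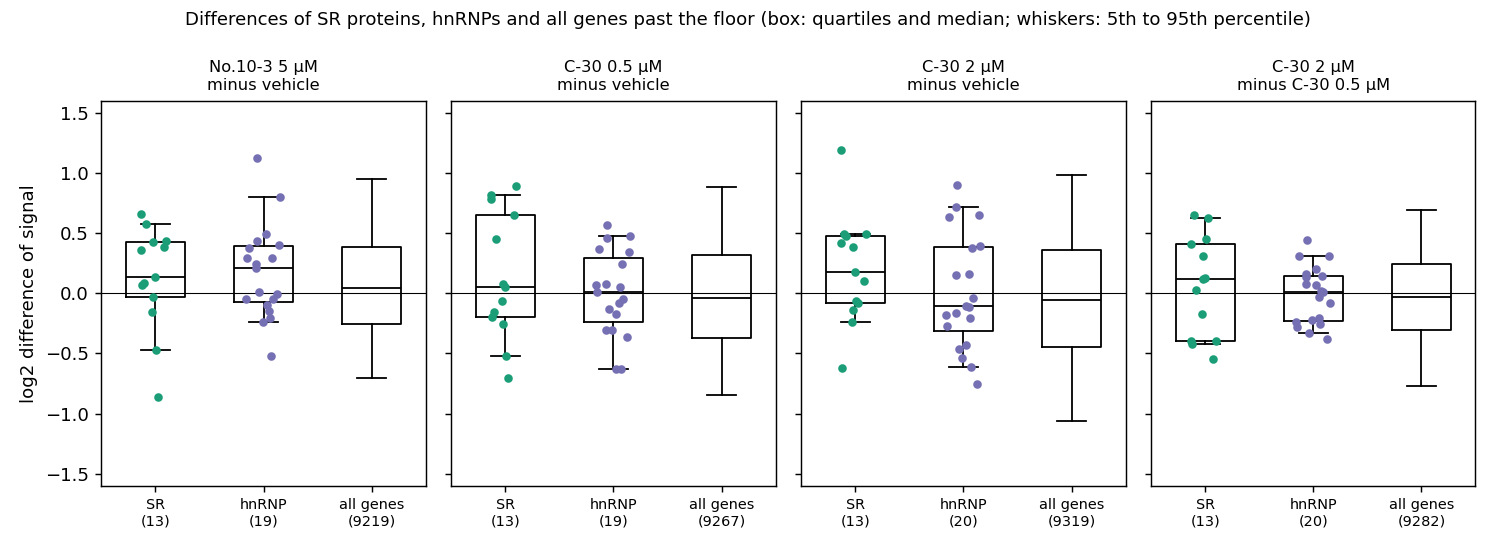
Log2 difference of signal (y axis) for SR proteins, hnRNPs and all genes past the floor (x axis, number of genes in brackets) in 4 comparisons; points are members, boxes show quartiles and median, and whiskers run from the 5th to the 95th percentile. The boxes of both families overlap that of all genes in each panel, and the medians of members lie between -0.11 and 0.21.

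Between the C-30 doses, 2 µM minus 0.5 µM, the SR genes spread more widely than the hnRNPs, with quartiles of -0.40 and 0.41 against -0.23 and 0.14, and -0.31 and 0.24 for all genes. This difference in spread was not tested. The highest SR genes were SRSF6 at 0.65, SRSF12, within background, at 0.62, TRA2A at 0.45 and SRSF3 at 0.41. SRSF7 was the lowest at -0.55, followed by SRSF8 at -0.43, SRSF1 at -0.40 and SRSF11 at -0.40. Among hnRNPs the range ran between -0.38 for HNRNPL and 0.44 for HNRNPH3. At 1.5-fold, SRSF6 and SRSF12 were higher, 2 of 33 members, and 0 were lower, against 7.89% and 9.92% of all genes. SRSF3 and HNRNPH2, for example, were higher at 2 µM than at 0.5 µM and higher at 0.5 µM than with vehicle, and HNRNPL and HNRNPM followed the reverse order. SRSF1, SRSF7 and SRSF11 instead were higher at 0.5 µM than at 2 µM and with vehicle.

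Gene span and signal level were set against the differences. Across the members past the floor, the Spearman correlation of the difference with log2 genomic span was -0.21 with No.10-3 (32 members), -0.11 with C-30 at 0.5 µM (32) and -0.04 at 2 µM (33). Across all genes with a span it was 0.18, 0.10 and 0.07. With the mean signal of the 2 arrays the members' correlations were -0.14, 0.06 and -0.22, and those of all genes 0.0070, -0.08 and -0.10. Genes on 1 array share its labelling and scaling, and these values are descriptions. SRSF7 and HNRNPLL lie in the same region of chromosome 2 (SRSF7 at 38743599 to 38751494, HNRNPLL at 38561969 to 38602928). With C-30 at 0.5 µM SRSF7 stood at 0.65 and HNRNPLL at -0.18, on opposite sides of vehicle.

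The genes that act on or beside these families were described by lists. Over all genes, the share past 2-fold in either direction was 5.68% for No.10-3, 6.17% for 0.5 µM C-30 and 10.8% for 2 µM C-30. Each list had between 0 and 3 genes past it in a comparison, too few to set apart from these shares. The other scalings were not applied to single genes of these lists. Median centring would lower differences of No.10-3 by 0.09 and raise those of C-30 at 2 µM by 0.07. That would take TNPO1, PPP1CA and RBM10, described below, under 2-fold. Of 13 listed kinases, phosphatase subunits and import receptors of SR proteins, 10 were past the floor in the comparisons of No.10-3 and of C-30 at 0.5 µM and 9 at 2 µM, with medians of 0.51, -0.07 and 0.14. The kinase SRPK2 entered the first 2 of these comparisons only through its treated arrays, at 5.71 and 5.81. Its vehicle signal of 4.88 lay under the floor, and all these signals were within background. The SRPK2 differences of 0.83 and 0.93 raised the first 2 medians, and medians without this gene were not computed. TNPO1, the import receptor of hnRNP A1, just passed 2-fold with No.10-3, with 12.52 after No.10-3, 12.33 after 0.5 µM C-30 and 12.46 after 2 µM C-30, against 11.51 after vehicle. With C-30 at 2 µM PPP1CA, a catalytic subunit of protein phosphatase 1, just passed 2-fold on the lower side, with 12.70 against 13.71 in vehicle cells. CLK4, a kinase of SR proteins, was at 1.15 there, within background. Among 19 measured SR-related proteins and exon junction partners, SRRM1, a coactivator that bridges SR proteins and the spliceosome, was the lowest. It had a signal of 13.82 in cells given No.10-3, of 13.35 and 13.18 in cells given C-30 at 0.5 and 2 µM, against 14.60 in vehicle cells. SRRM1 was lower on all 3 treated arrays and passed 2-fold at both C-30 doses, at -1.25 and -1.42. BCLAF1, which binds spliceosome components, was at 1.07 with C-30 at 2 µM, with its vehicle signal under background. SREK1, an SR-related protein, was at 1.23 with No.10-3, within background. It entered all comparisons with vehicle only through the treated arrays, at 6.38, 5.74 and 5.70, all within background. Its vehicle signal of 5.15 lay under the floor. The list's medians were 0.13, 0.21 and 0.02. The SREK1 differences of 1.23, 0.60 and 0.56 raised them, and medians without this gene were not computed.

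Of 7 relatives of the hnRNPs past the floor, TARDBP, which encodes TDP-43, passed 2-fold with C-30 at 0.5 µM, with 11.93 on the No.10-3 array, 12.48 and 11.81 on the arrays of C-30 at 0.5 and 2 µM, against 11.42 on the vehicle array. That list had medians of -0.23, -0.37 and -0.01. Among 19 other splicing regulators past the floor none passed on the arrays of No.10-3 or of 0.5 µM C-30, and 3 did at 2 µM. TIAL1 and TIA1, paralogues that bind uridine-rich sequence next to 5′ splice sites, were higher by 1.18 and 1.13, and RBM10, an exon-skipping factor, differed by -1.07. The medians were 0.31, 0.18 and 0.08. Of 11 factors of nonsense-mediated decay, UPF1, its central helicase, was at -1.20 with C-30 at 2 µM, where its signal was under background. UPF1 had 8.78 after No.10-3, 7.48 after 0.5 µM C-30 and 7.08 after 2 µM C-30, against 8.28 after vehicle. The list's medians were -0.01, -0.15 and 0.02, beside 0.05, -0.04 and -0.06 over all genes.

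**Figure D4:**
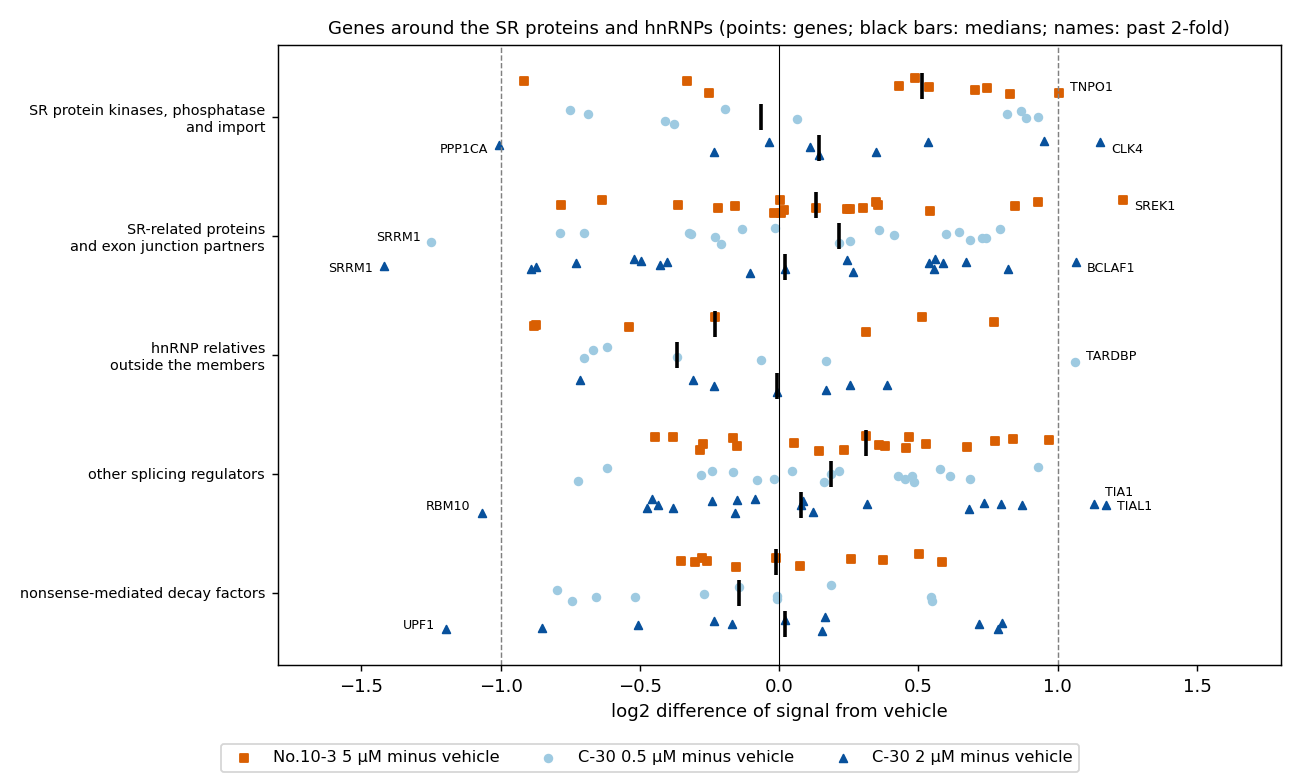
Log2 difference of signal from vehicle (x axis) for genes of 5 lists (y axis), 1 point per gene past the floor; squares are No.10-3 at 5 µM, circles C-30 at 0.5 µM, triangles C-30 at 2 µM, black bars are medians, dashed lines mark 2-fold and genes past it are named. SRRM1 lies lowest, at -1.25 and -1.42 on the C-30 arrays.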

How the data were processed

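DU145 cells were profiled on 1 array per condition. The deposited values are RMA signals from Affymetrix Expression Console 1.3.0, per the submitters' processing notes. The deposited unit is taken as log2 per probe set, since the range of values and RMA's usual output point to it. The highest named value was 19.66, above what scanner readings span, so the deposited log2 scale may include a further step. The build used for processing is not given in the sources used here.

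The platform annotation gave a single symbol for 17709 of 24351 probe sets, and these matched RefSeq (GRCh38.p14) by Entrez identifier. The mean was taken for the 20 genes with several probe sets, which left 17687 genes. The floor was 5.56. Each difference is between 2 arrays, with no test, and having few arrays limits precision. Replicates, batches and RNA quality could not be examined.

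The members, lists, floor and threshold were chosen with earlier results of these data known. Members past 2-fold and the 4 highest and 4 lowest of each family on each treated array were given in full. The procedure was tested on simulated data. Alternatives were a 1.5-fold threshold, leaving out the floor, raising it to the 75th percentile (7.90), quantile normalization, a lowess correction (fraction 0.3), median centring, the brightest probe set and the other table of the same values, which differed by at most 5e-05. The tools were matplotlib 3.10.9, statsmodels 0.14.6, scipy 1.17.1, Python 3.11.15, pandas 2.3.3 and numpy 2.4.6. Promoter sequences and gene spans are RefSeq's, on GRCh38.p14. Protein features of the members were planned but not computed.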

Additional observations from a re-analysis of the deposited data

How the results depend on the processing

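No paired analysis was possible because each condition has 1 array, and for the same reason no replicate could be left out. Of 164 values recomputed under other settings, 20 moved by over 1.5 times, for a count, or by over 0.1, for a median or a difference of medians. Many of the other 144 could not move. Each measured member has 1 probe set, so the 22 values under the brightest probe set were fixed. The 22 from the other table could differ by rounding only. Centring cannot move a difference of family medians. Some unmoved values changed sign. With No.10-3 the SR median minus the hnRNP median was 0.02 without a floor, against -0.07. Between the doses the hnRNP median was -0.03 at the 75th percentile floor, against 0.01. The 144 include the single differences of HNRNPH3 with No.10-3 and of SRSF3 with C-30 at 2 µM. These stayed past 2-fold, at 1.03 to 1.12 and 1.19 to 1.35. At 1.5-fold the counts of higher members were 3 with No.10-3, 4 with C-30 at 0.5 µM, 5 at 2 µM and 2 between the doses, and of lower members 1, 3 and 3 against vehicle. With a floor at the 75th percentile, where fewer members enter, the SR median was 0.36 for No.10-3 and 0.38 for 2 µM C-30, and the SR median minus the hnRNP median was 0.25 and 0.55. After quantile normalization and after a lowess correction the higher count with C-30 at 2 µM was 2, with SR medians of 0.35 and 0.34 and hnRNP medians of 0.0822 and 0.0085. The lowess correction gave medians of 0.16 for SR proteins and 0.14 for hnRNPs with C-30 at 0.5 µM, and quantile normalization an hnRNP median of 0.12 between the C-30 doses. The cause of these shifts under other scalings was not tested. Among only the genes past 2-fold, 61.4% were on the higher side with No.10-3 after centring the arrays, against 76.7% as deposited. With C-30 at 2 µM the share was 55.4%, against 43.2%. The sign of 3, 4 and 8 members against vehicle, and of 2 between the doses, changed under some scaling, and HNRNPU at 0.5 µM and HNRNPH1 between the doses reached 0. Signals under background limit what can be said of SRSF12, PTBP2 and, on the vehicle array, HNRNPH2.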
